A study of Mus musculus with 6 samples.

Results

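The proteasome genes of mouse epiblast-like cells were compared between cells with and without Cables2. The members are the gene rows named Adrm1 and those whose name begins with Psma, Psmb, Psmc, Psmd, Psme, Psmf or Psmg and a number, without the pseudogene rows marked -ps. There were 51 such rows among 49585. They comprise 19 genes of the core particle, 23 of its regulators, 7 of assembly chaperones and 2 rows, Psmc3ip and Psme2b, that fit the rule by name only.

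The proteasome degrades proteins that carry ubiquitin chains. Its core particle is a stack of alpha rings, which gate the entrance, and beta rings, which hold the proteolytic sites. A regulatory particle with a ring of ATPases and a lid receives, unfolds and deubiquitinates the substrates, and the transcription factor Nfe2l1 raises the genes of both when proteolysis falls short. Pluripotent cells are known for high proteasome activity.

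The libraries came from C57BL/6 epiblast-like cells (EpiLCs), a culture counterpart of the early postimplantation epiblast. All of them were made from embryonic stem cells (ESCs) kept with LIF, CHIR99021 (3 µM) and PD0325901 (1 µM). The cells were then plated on fibronectin with activin A (20 ng/mL), bFGF (12 ng/mL) and KSR (1%) and were collected 2 days after induction. Groups differed by genotype, with 3 wild-type (WT) and 3 Cables2-/- (KO) libraries. RNA was depleted of ribosomal RNA and sequenced in short read pairs after a strand-marking library kit. The labels do not say how many ESC lines or clones were used or whether the libraries of a group were separate cultures, so p-values cover only how far these libraries spread, and that spread may be technical.

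Library totals ran from 4234788 to 5206717 counts. Cables2 itself had 114, 111 and 121 counts in the WT libraries and 6, 11 and 4 counts in the KO libraries. The 11 epiblast markers summed to 5911 to 6229 CPM (counts scaled to the library total) in WT and 6225 to 6445 CPM in KO, and Sox2 was listed with 0 to 2 counts. Of the 10 tested, Fgf5 and Pou3f1 rose and Dnmt3a and Lin28a fell. Rps21, near Cables2 on chromosome 2, stood at 388 to 397 CPM in WT and 168 to 173 CPM in KO. Naive ESC markers summed to 283 to 339 CPM in WT and 159 to 173 CPM in KO, with Prdm14 at 0. Of the 7 tested, 5 fell, against 9.13% of all tested genes. Among those 5, Nanog lies on chromosome 6 and Zfp42 on chromosome 8, whose medians over all tested genes were -0.25 and -0.21. The share of mitochondrially encoded genes was 0.141% to 0.152% in WT and 0.204% to 0.243% in KO. Fibroblast markers summed to 17.2 to 18.3 CPM in WT and 17.3 to 24.5 CPM in KO, with Lum and Postn at 0. Primitive endoderm markers summed to 14.2 to 21.5 and 9.93 to 16.2 CPM, and trophoblast markers to 83.3 to 102 and 110 to 114 CPM with Elf5 at 0. Of the 4 tested trophoblast markers, Krt18 rose, from 56.1 to 63.3 CPM in WT to 70.7 to 80.7 CPM in KO. Of the 2 tested primitive endoderm markers, Gata4 fell, with 13 to 18 counts in WT and 3 to 9 in KO. Over all tested genes 8.13% were called higher and 9.13% lower. Whether these differences bear on the results below was not tested. In such bulk libraries, fewer cells of a type and less RNA per cell cannot be told apart.

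Few proteasome genes changed, and those that did changed little, apart from Psme2 at 150% of the WT mean. Of the 48 members that passed the filter on low counts, Psmc3, Psmd6, Psmd12 and Psme2 rose in the KO and Psmd7 fell. All of them belong to the regulators, so 5 of 23 regulatory genes, 0 of 17 tested core genes and 0 of 7 assembly genes changed (edgeR's quasi-likelihood test, with p adjusted after Benjamini and Hochberg over all 11594 tested genes and called under 0.05). This is 10.4% of the tested members, and over all tested genes 17.3% were called, 8.13% higher and 9.13% lower. An unadjusted p under 0.05 was found for 2 core genes, 8 regulatory genes and 0 assembly genes, or 10 of 48, and for 3408 of all 11594 genes. DESeq2 called 3 members, the regulatory genes Psmc3, Psme2 and Psmd7, with 0 core and 0 assembly genes, and 10.7% of all genes. Whether the shares of core and regulatory genes differ was not tested.

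Every fold change below is a log2 fold change, KO minus WT. Its median over the tested members was 0.06, against 0.0087 over all tested genes. Above 0 were 33 of the 48 values, and 5960 of all 11594. The members' median ran from 0.03 to 0.08 over the alternatives. The low end, 0.03, came with the median of each gene's chromosome subtracted, which put the median of all tested genes at 0. The high end, 0.08, came with library size alone, where the median of all tested genes was 0.026. The median size of the change was 0.10 for the members and 0.17 for all genes. Members are abundant, and of the 38 with a mean of at least 40 CPM, 10.5% were called, against 27.0% of all genes at that level. For 29 of these 38 members (76.3%), and for 56.7% of all genes at that level, the 95% interval of the log2 fold change lay between -0.3 and 0.3. Among all tested members the KO libraries lay wholly above the WT libraries for 6 genes and wholly below for 2, or 16.7% together. Over all genes that share was 31.8%, with 17.2% above and 14.6% below.

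**Figure D1:**
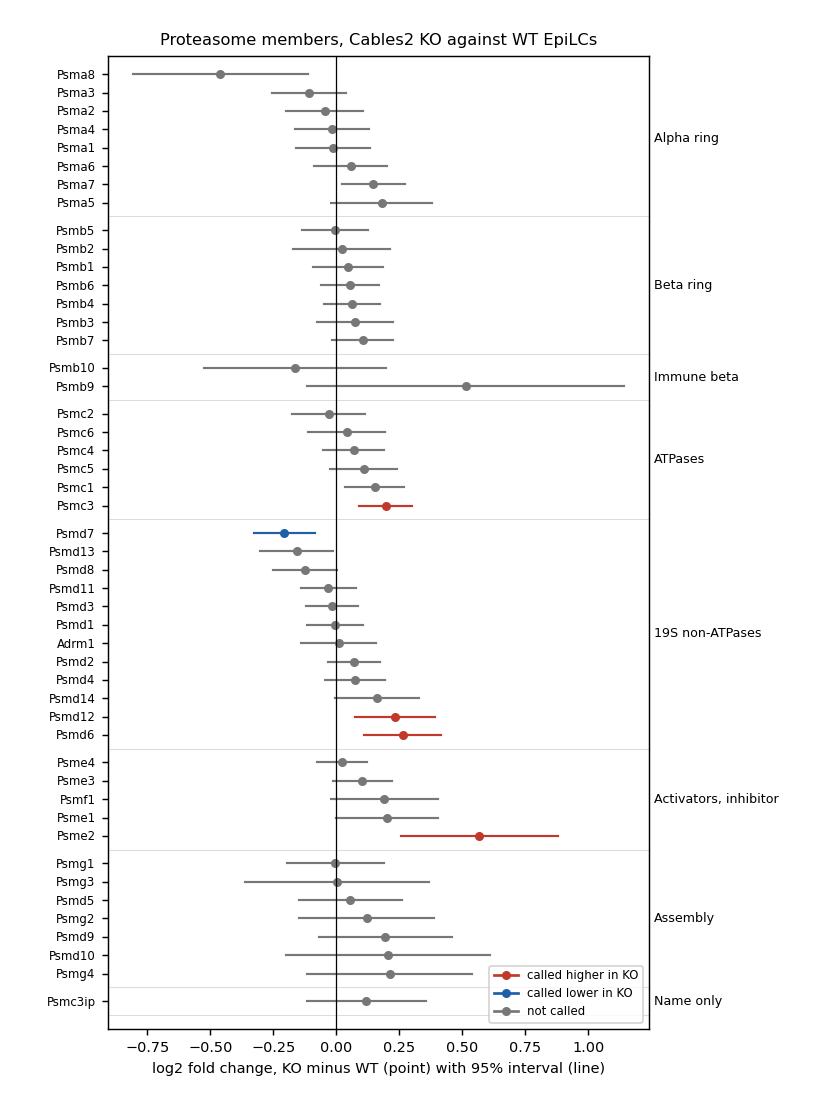
Log2 fold change (KO minus WT) of the 48 tested members on the x axis, with 95% intervals as lines, grouped by part of the proteasome. The 4 genes called higher are red, the gene called lower, Psmd7, is blue, and the alpha ring, the beta ring and the assembly genes hold only grey points.

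The antioxidant response element, through which Nfe2l1 acts on proteasome genes, is the sequence feature by which these genes are usually linked. The promoters of the members were searched for its core, TGACNNNGC. Promoter windows of 300 bases (250 before the start and 50 after it, RefSeq, GRCm38.p6) were found for 43 of the 51 members. The motif occurred on either strand in 7 of them (16.3%) and in 17.0% of the 8972 tested genes with a window. The stretches around it are given on the strand of the gene, with the motif in capitals, and overlaps with the other motifs below were allowed.
Psmb5 (chr14:54618014-54618062, minus strand): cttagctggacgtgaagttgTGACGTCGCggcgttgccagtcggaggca
Psmb6 (chr11:70525328-70525376, plus strand): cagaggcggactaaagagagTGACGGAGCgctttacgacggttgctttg
Adrm1 (chr2:180171406-180171454, plus strand): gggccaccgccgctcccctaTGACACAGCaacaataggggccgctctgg
Psmc6 (chr14:45329577-45329625, plus strand): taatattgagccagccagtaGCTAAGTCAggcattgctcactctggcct
Psmd12 (chr11:107479278-107479309, plus strand): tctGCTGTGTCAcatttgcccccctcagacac
Psmd9 (chr5:123228139-123228187, plus strand): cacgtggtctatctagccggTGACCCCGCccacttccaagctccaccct
Psme4 (chr11:30771748-30771796, plus strand): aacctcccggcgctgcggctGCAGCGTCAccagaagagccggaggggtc
In Psmb5, Psmb6 and Psme4 the motif began 47, 9 and 7 bases before the annotated start, and in Psmd12 it lay at the far edge of the window, 247 bases before it. Of these 7 genes, Psmd12 rose. The other 6 were not called, with log2 fold changes from -0.01 for Psmb5 to 0.19 for Psmd9. A match is a description of the letters and does not show binding.

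The Ets motif CCGGAAGT, common in promoters of housekeeping genes, was present on either strand in 9 of 43 members (20.9%) and in 9.55% of the tested genes. CCAAT was present in 37.2% of the members and 43.9% of the tested genes. The interferon response core, a pair of GAAA repeats with any NN between them, was present in 5 members (11.6%) and in 3.34% of the tested genes. These 5 were Psmb3, Psmd4, Psmd9, Psme1 and Psmg4, and none of them was called. The windows of the immune subunits Psmb8, Psmb9 and Psmb10 did not hold it. Of the 9 members with the Ets motif, Psmd6 and Psmd12 rose and the other 7 (Psma6, Psmc1, Psmc2, Psmd13, Psme3, Psme4 and Psmg3) were not called. Psme2, which also rose, held 0 matches to any of these motifs in its windows. Psmc3, which rose, and Psmd7, which fell, were among the members without a window and were not searched. The whole windows of Psmd6 and Psmd12 are shown as examples from called members, with the Ets motif and the antioxidant motif in capitals.
Psmd6 (chr14:14120896-14121195, minus strand): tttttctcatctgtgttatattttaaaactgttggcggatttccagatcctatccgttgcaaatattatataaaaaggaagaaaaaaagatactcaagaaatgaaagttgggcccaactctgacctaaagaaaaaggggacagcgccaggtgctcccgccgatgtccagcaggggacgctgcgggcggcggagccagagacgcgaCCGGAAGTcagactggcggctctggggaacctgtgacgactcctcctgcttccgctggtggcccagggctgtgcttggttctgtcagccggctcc
Psmd12 (chr11:107479278-107479577, plus strand): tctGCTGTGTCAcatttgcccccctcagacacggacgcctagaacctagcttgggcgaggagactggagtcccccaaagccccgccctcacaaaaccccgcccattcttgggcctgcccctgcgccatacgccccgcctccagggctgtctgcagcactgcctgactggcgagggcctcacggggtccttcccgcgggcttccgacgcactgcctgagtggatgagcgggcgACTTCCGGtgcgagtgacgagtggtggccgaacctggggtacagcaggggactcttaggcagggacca

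The alpha ring, whose subunits form the gate of the core particle, held 0 called members of 8, against 17.3% of all tested genes. Its fold changes ran from -0.46 to 0.18 with a median of -0.02, and the median was between -0.08 and 0.04 when single libraries were left out. Psma5 had the highest value, with 45.2, 56.7 and 44.4 CPM in the WT libraries and 56.7, 55.9 and 54.9 CPM in the KO libraries. WT library 02 stood at the KO level and the other WT libraries below it, and the log2 fold change was 0.18 ± 0.10 (SE; adjusted p = 0.223). Psma7 lies 216 kb from Cables2 on chromosome 2 and had 161, 201 and 194 CPM in the WT libraries and 191, 219 and 212 CPM in the KO libraries. The groups overlapped and the gene was not called (0.15 ± 0.06, adjusted p = 0.0966), although it passed at 0.20 when WT library 02 was left out (adjusted p = 0.0413) and when KO library 04 was (adjusted p = 0.0408).

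Psma8, the paralog of Psma7 that is known from the proteasome of male germ cells, had the lowest value of the ring, with 21.4, 19.4 and 16.1 CPM in the WT libraries and 12.1, 18.6 and 11.03 CPM in the KO libraries. The groups overlapped through KO library 05, which stood at the level of the WT libraries, and the gene was not called (-0.46 ± 0.17, adjusted p = 0.0563). Without KO library 05 it was called at -0.73 (adjusted p = 0.00616), and without WT library 03 at -0.56 (adjusted p = 0.0292). How reads shared with Psma7 were counted is not given in the sources used here.

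In the beta ring, 0 of the 7 constitutive members were called, against 27.0% of all genes at 40 CPM or more. The 95% intervals of all 7 lay between -0.3 and 0.3, as did those of 56.7% of all genes at that level. Psmb5, which carries the chymotrypsin-like site, had 145, 137 and 147 CPM in the WT libraries and 136, 145 and 152 CPM in the KO libraries. The groups overlapped, with a log2 fold change of -0.01 ± 0.07 (SE; adjusted p = 0.97) and a 95% interval of -0.13 to 0.12. Psmb6, the caspase-like subunit, had 208, 211 and 202 CPM in the WT libraries and 217, 227 and 208 CPM in the KO libraries. Its groups overlapped too (0.05 ± 0.06, adjusted p = 0.579, interval -0.06 to 0.17). Psmb7, the trypsin-like subunit, had 155, 168 and 158 CPM in the WT libraries and 177, 173 and 173 CPM in the KO libraries. All KO libraries were above all WT libraries here, but the difference was small and was not called (0.11 ± 0.06, adjusted p = 0.246, interval -0.02 to 0.23). Summed over these catalytic genes, the level was 507 to 515 CPM in WT and 530 to 545 CPM in KO. Over all 7 constitutive genes the sums overlapped, at 1014 to 1077 CPM in WT and 1073 to 1101 CPM in KO. Psmb1, Psmb2, Psmb3 and Psmb4 had fold changes between 0.02 and 0.07.

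The immune subunits, which replace the constitutive catalytic ones after interferon, were scarce. Psmb8 had 3, 2 and 3 counts in the WT libraries and 5, 2 and 3 counts in the KO libraries, near the floor of 3 counts, and was not tested. Psmb10, on chromosome 8, had 15.7, 18.5 and 11.8 CPM in the WT libraries and 12.9, 16.9 and 11.7 CPM in the KO libraries, with overlapping groups and a log2 fold change of -0.16 ± 0.18 (adjusted p = 0.605). Psmb9 had 21, 11 and 20 counts in the WT libraries and 24, 31 and 27 counts in the KO libraries. KO library 04 lay among the WT libraries in CPM and the other KO libraries above them, and the gene was not called (0.51 ± 0.32, adjusted p = 0.281). Its interval of -0.12 to 1.14 leaves a change in either direction possible at this depth. The exons of Psmb9 overlap those of Tap1 on the opposite strand, and the strand setting of the counting is not given, so reads of the pair may be mixed. Psmb11, the thymus subunit, was listed at 0 in all libraries. Per kilobase of coding transcript, the immune catalytic genes summed to 2.34% to 2.89% of the constitutive ones in WT and to 2.39% to 2.95% in KO.

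**Figure D2:**
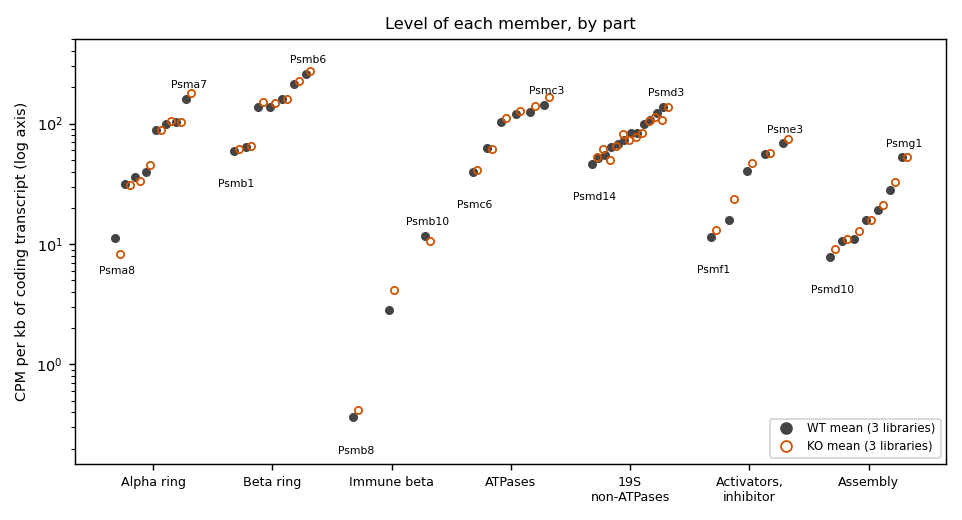
Level of each member with any count, in CPM per kilobase of the longest coding transcript (log axis), ordered within each part, as the mean of 3 WT libraries (filled) and 3 KO libraries (open). WT and KO points nearly coincide in most members, and Psmb8 lies lowest, at 0.363 in WT.

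The members differed far more among themselves than between the genotypes. On the scale of CPM per kilobase in WT, the constitutive beta genes ran from 59.2 ± 4.75 for Psmb1 to 259 ± 5.81 for Psmb6 (SD, n = 3). The ATPases ran from 39.4 ± 2.57 for Psmc6 to 144 ± 3.67 for Psmc3, and the assembly genes from 7.86 ± 2.60 for Psmd10 to 52.4 ± 3.05 for Psmg1. These orders depend on the length taken. With the union of all annotated exons Psmb1 was still the lowest beta gene and Psmg1 the highest assembly gene, but Psmb5 led the beta ring and Psmc1 the ATPases.

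The ATPase ring unfolds substrates and drives them into the core. Psmc3 (chromosome 2, 91054009 to 91066369, plus strand, GRCm38) rose, with 254, 267 and 263 CPM in the WT libraries and 310.3, 299 and 298 CPM in the KO libraries. The KO libraries were all above the WT libraries, at 116% of the WT mean, and the log2 fold change was 0.20 ± 0.05 (SE; adjusted p = 0.0045). It was called in each of the 14 alternative fits (adjusted p 0.00186 to 0.035), and in the authors' deposited table it had a signed fold of 1.14 (adjusted p 0.000738). Its exons overlap those of Slc39a13 on the opposite strand, which had 3.51 CPM in WT and 3.00 CPM in KO. Psmc1 had 188, 216 and 190.1 CPM in the WT libraries and 227, 225 and 215 CPM in the KO libraries and was not called (0.15 ± 0.06, adjusted p = 0.0601). It passed with upper-quartile factors (0.17, adjusted p = 0.0344), with library size alone (0.17, adjusted p = 0.0373) and without WT library 02 (0.21, adjusted p = 0.0183). Psmc2 had the lowest fold change of the ring, with 99.2, 126 and 111 CPM in the WT libraries and 107, 116 and 109 CPM in the KO libraries and a value of -0.03 ± 0.07 (adjusted p = 0.829). Summed over the 6 genes, the ring stood at 908, 1025 and 966 CPM in WT and at 1055, 1083 and 1030 CPM in KO. The groups did not overlap in this sum. With the 12 non-ATPases added they did, at 2938 to 3177 CPM in WT and 3135 to 3204 CPM in KO. The sums of the alpha ring and of the non-ATPases alone overlapped too. So did the sum of the 14 standard core subunits, at 1712 to 1872 CPM in WT and 1824 to 1907 CPM in KO.

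The non-ATPase subunits form the scaffold, the ubiquitin receptors and the deubiquitinating lid of the regulatory particle. Of 12 genes 2 rose and 1 fell, or 25%, with a median of 0.0025. Over all tested genes 17.3% were called, and 27.0% of those at 40 CPM or more, as all 12 were. Psmd6, a lid scaffold subunit (chromosome 14, 14112174 to 14120984, minus strand), had 81.7, 107 and 90.4 CPM in the WT libraries and 111, 110.4 and 118 CPM in the KO libraries. The KO libraries were all above the WT libraries, although WT library 02 came close, and the fold change was 0.26 ± 0.08 (SE; adjusted p = 0.00865). The call ended without WT library 01 (0.18, adjusted p = 0.135), without KO library 06 (adjusted p = 0.0705) and in DESeq2 (adjusted p = 0.0596). Psmd12, another lid scaffold subunit (chromosome 11, 107479484 to 107504362, plus strand), had 82.3, 103 and 119.7 CPM in the WT libraries and 117, 123 and 122 CPM in the KO libraries. The WT libraries were spread widely, with WT library 03 among the KO libraries, and the fold change was 0.23 ± 0.08 (SE; adjusted p = 0.0316). Its call ended in 7 of 14 alternative fits. The value was 0.10 (adjusted p = 0.441) without WT library 01. Leaving out WT library 02 gave an adjusted p of 0.0841, and leaving out KO library 04, 05 or 06 gave 0.0574, 0.0819 or 0.117. It was 0.16 in DESeq2 and 0.0632 without the genes of chromosomes 6 and 8. Psmd6 and Psmd12 had adjusted p of 0.125 and 0.585 in the authors' deposited table.

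**Figure D3:**
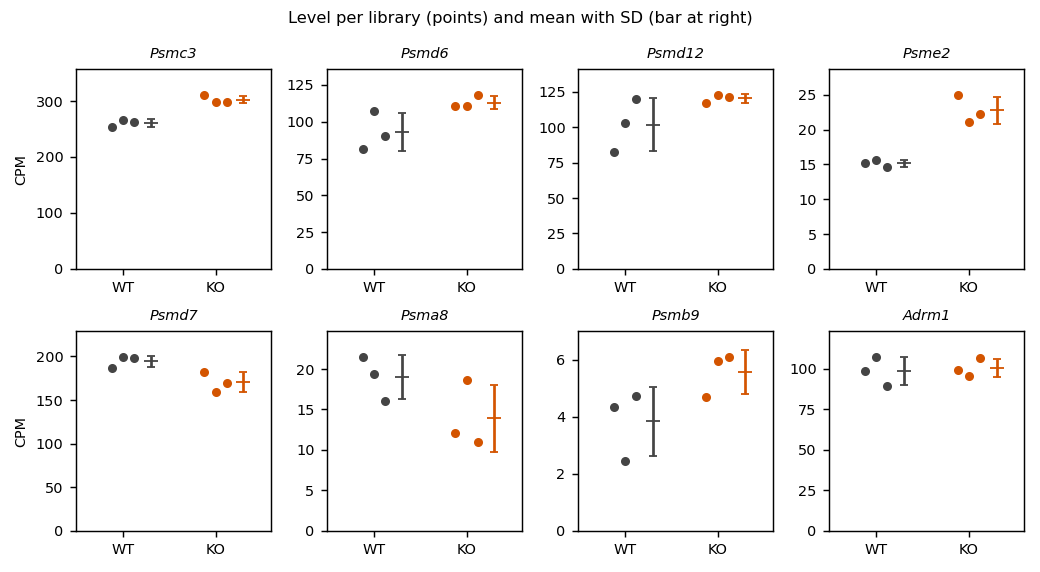
CPM of 8 members in each library (points) with the group mean and SD (bar to the right, n = 3), each panel from 0. Psmc3 and Psme2 are separated between WT and KO, Psmd12 and Psma8 overlap through 1 library each, and the Adrm1 libraries of both groups are mixed.

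Psmd7, a lid subunit and partner of the deubiquitinase Psmd14, was the member that fell, with 187, 199 and 198 CPM in the WT libraries and 183, 159.6 and 169 CPM in the KO libraries. All KO libraries were below all WT libraries, and the fold change was -0.21 ± 0.06 (SE; adjusted p = 0.0101). The call ended without KO library 05 (-0.15, adjusted p = 0.122), and the adjusted p in the authors' deposited table was 0.0537. Psmd7 lies on chromosome 8 (107580381 to 107588464, minus strand, GRCm38). The 647 tested genes of that chromosome had a median of -0.21, with 34.5% called lower and 2.01% higher. Chromosome 6, which carries 0 members, had a median of -0.25 over 537 genes, and the other 18 chromosomes (autosomes and X) had medians from -0.01 to 0.05. After the median of its chromosome was subtracted, the value of Psmd7 was 0.0023, and that of Psmb10, the other member on chromosome 8, was 0.04.

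**Figure D4:**
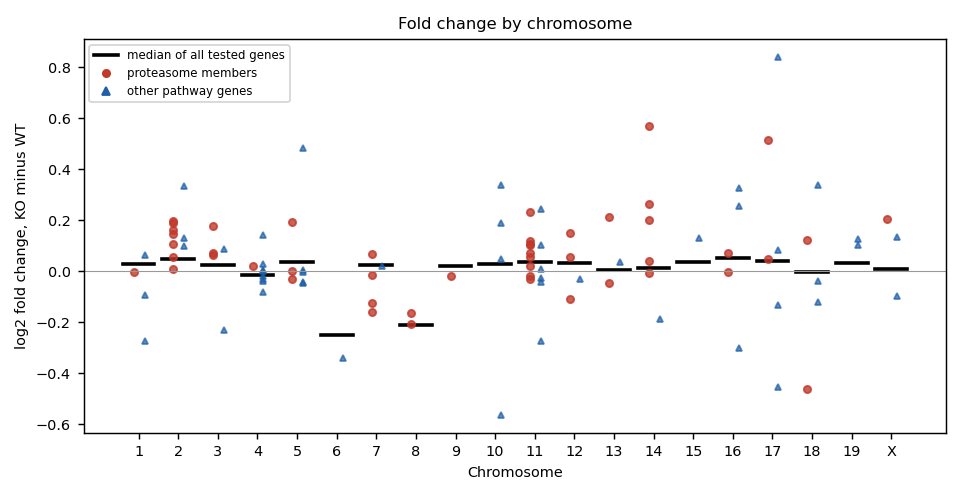
Log2 fold change (KO minus WT) by chromosome, with the median of all tested genes as a bar, proteasome members as circles and other genes of the pathway as triangles. The bars of chromosomes 6 and 8 lie at -0.25 and -0.21, and both members on chromosome 8 lie close to its bar.

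Adrm1, the ubiquitin receptor nearest to Cables2, at 82.3 kb, had 98.8, 107 and 89.5 CPM in the WT libraries and 98.9, 95.6 and 107 CPM in the KO libraries. The groups overlapped, with a fold change of 0.01 ± 0.08 (adjusted p = 0.957) and an interval of -0.14 to 0.16. Psmd14, the deubiquitinase of the lid, had 70.1, 77.3 and 66.4 CPM in the WT libraries and 80.2, 77.4 and 84.9 CPM in the KO libraries. The KO libraries lay above the WT libraries, with WT library 02 next to the lowest of them, and the gene was not called (0.16 ± 0.08, adjusted p = 0.182). Psmd13, a lid subunit, had 108, 109.7 and 108 CPM in the WT libraries and 103, 95.8 and 96.3 CPM in the KO libraries. All its KO libraries were below the WT libraries, but it was not called either (-0.16 ± 0.07, adjusted p = 0.126), and its exons overlap those of Sirt3 on the opposite strand, whose own value was -0.44 ± 0.23 (adjusted p = 0.193). The large base subunits Psmd1 and Psmd2 and the ubiquitin receptor Psmd4 had values of -0.0041, 0.07 and 0.07. Psmd3, Psmd8 and Psmd11 had values of -0.02, -0.12 and -0.03, and none of these was called.

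Among the activators, which open the core without ATP, Psme2 had the largest change of all called members. Psme2 encodes the beta chain of an interferon-inducible activator and had 74, 70 and 62 counts in the WT libraries and 128, 110 and 99 counts in the KO libraries, or 15.3, 15.6 and 14.6 CPM in the WT libraries and 24.9, 21.1 and 22.3 CPM in the KO libraries. The KO libraries were all above the WT libraries, at 150% of the WT mean, with a fold change of 0.57 ± 0.16 (SE; adjusted p = 0.00551). It was called in each of the 14 alternative fits (adjusted p 0.00409 to 0.0491), and its signed fold in the authors' deposited table was 1.48 (adjusted p 0.0021). Psme2b, a retrogene of the same name, was listed at 0 in all libraries, and how reads shared by the pair were assigned is not given. Psme1, the alpha chain of the same activator, lies beside Psme2 on chromosome 14 (55578123 to 55581529, against 55587441 to 55591113 for Psme2, GRCm38). It had 47.0, 43.3 and 44.9 CPM in the WT libraries and 49.3, 58.6 and 49.5 CPM in the KO libraries, with all KO libraries above the WT libraries, and was not called (0.20 ± 0.10, adjusted p = 0.17). The nuclear activator Psme3 (0.10), the large activator Psme4 (0.02) and the inhibitor Psmf1 (0.19) were not called. All 5 values of the activators and the inhibitor were above 0. Their median of 0.19 dropped to 0.088 when WT library 01 was left out and to 0.12 when KO library 05 was.

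Assembly chaperones build the core ring by ring (Psmg1 to Psmg4) or the ATPase base (Psmd5, Psmd9 and Psmd10). Of these 7 genes 0 were called, against 17.3% of all tested genes. Values ran from -0.0039 for Psmg1, with 53.6, 52.3 and 58.3 CPM in the WT libraries and 51.6, 53.8 and 60.5 CPM in the KO libraries, to 0.21 for Psmg4, with 14.6, 17.9 and 14.4 CPM in the WT libraries and 17.1, 19.6 and 18.2 CPM in the KO libraries. Both genes had overlapping groups. Psmg4 had an adjusted p of 0.419 and an interval of -0.11 to 0.54. Apart from Psmg1, which stood at the level of Psmb2 (both 54.7 CPM in WT), these genes were less abundant than the constitutive beta genes. The standard errors of the assembly genes reached 0.20, against 0.06 to 0.10 in the constitutive beta ring. Their summed level was 191 to 199 CPM in WT and 209 to 211 CPM in KO. Psmc3ip, a partner of meiotic recombinases that is no proteasome subunit, had a fold change of 0.12 ± 0.12 (adjusted p = 0.556). Over all 51 rows the members' share of all counts was 0.557% to 0.598% in WT and 0.598% to 0.609% in KO.

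The rest of the pathway was read from lists with 54 genes in the table, of which 51 were tested. In these lists 4 genes rose and 6 fell, or 19.6%, close to the 17.3% over all tested genes, with a median of 0.0044. Nfe2l1, the transcription factor that raises proteasome genes, fell, with 487, 456 and 441 CPM in the WT libraries and 381, 391.8 and 385 CPM in the KO libraries. All KO libraries were below the WT libraries, and the fold change was -0.27 ± 0.05 (SE; adjusted p = 1.18e-05). It was called in each of the 14 alternative fits, with values from -0.31 to -0.23. Ddi2, the protease that activates Nfe2l1, had a fold change of -0.04 ± 0.08 (adjusted p = 0.801). The other 8 tested genes of the same list were not called. Most act in the processing of Nfe2l1, but the list also holds Nfe2l2, its relative in the oxidative stress response (0.10 ± 0.08, adjusted p = 0.415).

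Of 15 tested factors that act on or with the proteasome, 2 rose and 2 fell, or 26.7%, against 17.3% of all tested genes. At 40 CPM or more 27.0% of all genes were called, but the 15 factors include less abundant ones, such as Ubxn11 (2.40 CPM in WT). Midn, which brings substrates to the proteasome without ubiquitin, had 178, 209.9 and 203 CPM in the WT libraries and 257, 245 and 253 CPM in the KO libraries. Its groups did not overlap, and it rose by 0.34 ± 0.06 (SE; adjusted p = 4.31e-06) on the log2 scale. Txnl1, a thioredoxin bound to the regulatory particle, had 80.2, 98.3 and 100.1 CPM in the WT libraries and 111, 128 and 117 CPM in the KO libraries and rose too (0.34 ± 0.08, adjusted p = 0.000444). The KO values of Txnl1 were all above the WT values. Ubxn7, an adaptor of the unfoldase Vcp, fell (-0.30 ± 0.06, adjusted p = 9.79e-05). Shfm1, an older symbol of the small lid subunit Sem1, lies on chromosome 6 and had 50.3, 46.7 and 43.4 CPM in the WT libraries and 35.8, 35.1 and 41.9 CPM in the KO libraries. It fell (-0.34 ± 0.11, adjusted p = 0.0215), and its value was -0.09 after the median of chromosome 6 was subtracted. The call of Shfm1 ended in DESeq2 (adjusted p = 0.0869) and when WT library 01 (0.128), KO library 04 (0.0856) or KO library 05 (0.106) was left out. Pomp, the maturation factor of the core, had a fold change of -0.05 ± 0.09 (adjusted p = 0.782), and the proteasome deubiquitinases Usp14 and Uchl5 had fold changes of -0.04 ± 0.07 (adjusted p = 0.774) and 0.06 ± 0.11 (adjusted p = 0.76).

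Of 5 tested shuttle factors, which carry ubiquitinated substrates to the proteasome, 1 rose and 1 fell, or 40%, against 17.3% of all tested genes. All 5 are abundant, and at 40 CPM or more 27.0% of all genes were called. With 5 genes the share is coarse. Sqstm1 rose (0.25 ± 0.06, adjusted p = 0.00075) and Ubqln4 fell (-0.23 ± 0.05, adjusted p = 0.000976). Ubqln1 (0.04) and Ubqln2 (0.14) were not called. Rad23b, another shuttle factor, on chromosome 4, had a fold change of 0.0044 ± 0.05 (adjusted p = 0.968). Of 13 tested genes of ubiquitin and its activation, 0 were called, against 17.3% of all tested genes. The polyubiquitin gene Ubb had a fold change of -0.03 ± 0.04 (adjusted p = 0.747). Ubiquitin genes share coding sequence, so the split of reads between them is uncertain.

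**Figure D5:**
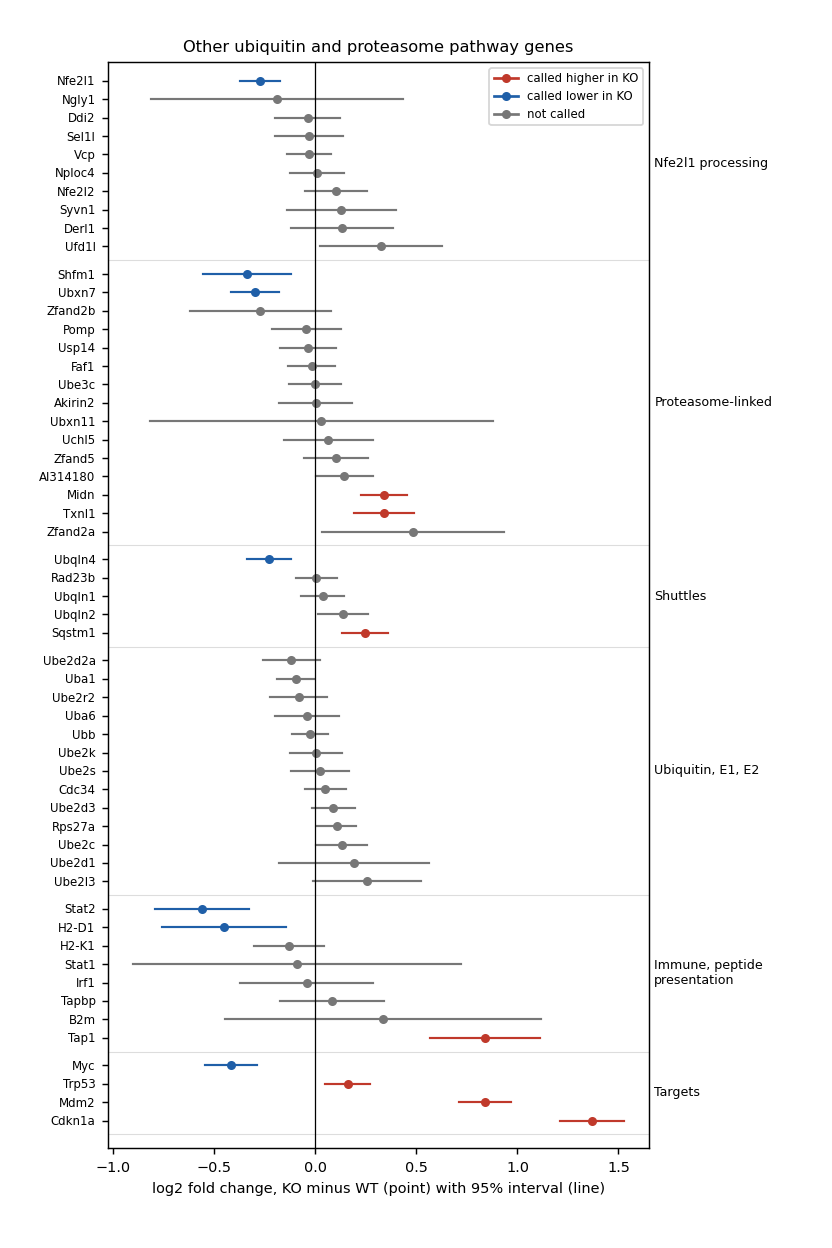
Log2 fold change (KO minus WT) with 95% intervals for the 55 tested genes of 6 lists around the proteasome, red where called higher and blue where called lower. Nfe2l1 is blue at -0.27, and each of the shuttle, proteasome-linked and immune lists holds both colours.

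Genes of interferon response and peptide presentation, in which Psme2 and the immune subunits act, did not move in 1 direction. Tap1, a subunit of the peptide transporter next to Psmb9 on chromosome 17, had 96, 88 and 74 counts in the WT libraries and 177, 192 and 141 counts in the KO libraries. Its groups did not overlap, and it rose by 0.84 ± 0.14 (SE; adjusted p = 1.23e-06) on the log2 scale. Tap2, its partner, had 1, 4 and 6 counts in the WT libraries and 11, 12 and 12 counts in the KO libraries, below the filter on low counts, and was not tested. Stat2, which transmits interferon signals, had 50.9, 38.6 and 49.1 CPM in the WT libraries and 28.8, 34.4 and 32.0 CPM in the KO libraries and fell (-0.56 ± 0.12, adjusted p = 0.000158), with all KO libraries below the WT libraries. The class I gene H2-D1 fell as well (-0.45 ± 0.15, adjusted p = 0.031). That call ended in DESeq2 (adjusted p = 0.135) and when WT library 01 (0.0661), WT library 02 (0.152), KO library 04 (0.092) or KO library 05 (-0.30, adjusted p = 0.246) was left out. Irf1, which activates Psmb9 and Tap1 in other cells, had a fold change of -0.04 ± 0.17 (adjusted p = 0.902). Markers of immune cells summed to 14.7 to 17.2 CPM in WT and 16.7 to 23.6 CPM in KO. Most of this sum was Laptm5, with 13.4, 13.2 and 13.7 CPM in the WT libraries and 20.8, 17.3 and 15.3 CPM in the KO libraries. Its KO libraries were all above the WT libraries, but it was not called (0.40 ± 0.17, adjusted p = 0.102). Cd74 had 9, 7 and 13 counts in the WT libraries and 13, 20 and 6 counts in the KO libraries and was not called. The defining gene Ptprc had at most 1 count in any library, H2-Aa at most 1 and Csf1r at most 3.

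Of 4 proteins whose stability the proteasome is known to set, all genes were called, and these were listed with their values already known. Mdm2, the ubiquitin ligase of p53, had 105, 106 and 108 CPM in the WT libraries and 192, 187 and 199 CPM in the KO libraries and rose by 0.84 ± 0.06 (adjusted p = 2.1e-18). Cdkn1a rose by 1.37 ± 0.08 (adjusted p = 4.97e-25), and Myc fell, at -0.42 ± 0.06 (adjusted p = 3.46e-07). Trp53 rose by 0.16 ± 0.06 (adjusted p = 0.0404), a call that ended in DESeq2 (adjusted p = 0.107), with no low-count filter (0.0665), without the genes of chromosomes 6 and 8 (0.0947) and in each of the 6 fits without 1 library (0.0506 to 0.198). These are transcript levels and give no measure of protein degradation.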

How the data were processed

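The authors deposited whole-number read counts per gene for each of 6 libraries, not normalized, per the file headers. Their p-values with FDR correction and their signed fold come from their own test of WT against KO in the deposited table, per the file headers. Per the submitters' processing notes the genome build was mm10 and edgeR was among the tools. The aligner, the annotation, the counter and how it treated strand and multiply mapped reads were not given in the sources used here. Another 18 deposited columns of values per library were not used.

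Columns carry genotype and a library number, 01 to 06, by which libraries are named. Of 49585 genes, filterByExpr left 11594. A robust quasi-likelihood fit in edgeR 4.0.16 (R 4.3.3) with genotype as the only term used TMM factors of 0.987 to 1.02, was tested on simulated data, and gave p-values that were adjusted after Benjamini and Hochberg over every tested gene. The standard error is the log2 fold change divided by the square root of F. CPM uses library totals, and 3 counts equal 0.576 to 0.708 CPM. Intervals cover the spread between these libraries. DESeq2 1.42.0, other scalings and filters, and fits without 1 library, without Gm26917 or without chromosomes 6 and 8 were alternatives. Coordinates, exon overlaps and lengths are from GENCODE M21 (40 of 51 members have the table's coordinates).

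Of the planned pathway lists, 3 genes are not reported here and enter no list count. The members and lists were chosen with earlier results of these data known. Named are Adrm1, the catalytic subunits, all called members, the highest and lowest of each part, all untested members and called pathway genes. Psma7, Psmc1, Psmd13, Psmd14, Psme1, the bounds of 40 CPM and 0.3 and the motifs were chosen after values were seen.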

Additional observations from a re-analysis of the deposited data

How the results depend on the processing

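Of 14 alternative fits, Psmc3 and Psme2 were called in all, Psmd7 in 12 of the 13 that held it, Psmd6 in 11 and Psmd12 in 7. Members called higher numbered 4 as reported above, 2 in DESeq2 and 2 to 5 with 1 library left out. Members called lower numbered 1, 0 without the genes of chromosomes 6 and 8 (which removes Psmd7) and 1 to 2 with 1 library left out. With 1 library left out, 0 to 1 alpha ring genes were called in either direction, 1 to 2 ATPases higher, 0 to 2 non-ATPases higher and 0 to 1 lower. ATPases called higher numbered 2 under upper-quartile scaling and 2 when only library size was used. Non-ATPases called higher numbered 0 in DESeq2 and 1 without chromosomes 6 and 8, where 0 were lower. Medians with 1 library left out were -0.022 to 0.033 for non-ATPases, 0.088 to 0.20 for activators and 0.079 to 0.17 for assembly genes. The activator median was 0.14 relative to chromosome medians, and the immune median 0.49 without chromosomes 6 and 8, which leaves only Psmb9. Relative to the median of chromosome 8, Psmd7 changed sign (0.0023). The cause of the other shifts was not tested. No paired analysis was possible because the columns carry library numbers and not the replicate numbers of the labels. At this depth, Psmb8, Psmb11 and Psme2b could not be tested, and the largest standard error among the tested members was 0.32, for Psmb9.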

Other observations

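The 4 rows marked -ps that the rule drops (Psmb5-ps, Psmb6-ps, Psmb6-ps2 and Psmb7-ps2) were listed at 0 in all 6 libraries. Exons of 15 of the 51 members overlap exons of another annotated gene. Of these other genes, Tap1 was the one called, and Nek6, which overlaps Psmb7 on the opposite strand, lay at -0.27 ± 0.13 on the log2 scale (KO minus WT, adjusted p = 0.146).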
